A study of Homo sapiens with 8 samples.

Results

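Mitochondrial ribosomal protein genes encode the protein part of the mitochondrial ribosome (mitoribosome). They were taken as the rows of the count files whose whole symbol is MRPL or MRPS followed by a number and, in some, a letter A to C. This gave 77 of the 56832 gene rows, 48 with MRPL and 29 with MRPS symbols, and all 77 passed the filter on low counts. The symbol MRPL58 is absent under that spelling, because the files carry the gene by its older symbol ICT1, so it is given here beside the members and not counted among them. The cells were Nthy-ORI, an immortalised line from human thyroid follicular epithelium, kept for 24 h in hormone-depleted medium with charcoal-stripped serum before treatment. RNA-seq libraries from total RNA depleted of ribosomal RNA formed 4 groups of 2: 10 nM triiodothyronine (T3) for 24 h, NaOH vehicle for 24 h, 10 nM T3 for 6 h and NaOH vehicle for 6 h. The labels do not tell whether the 2 libraries of a group are separate cultures. The p-values therefore rest on a spread that may be technical.

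The mitoribosome sits in the mitochondrial matrix and translates the few messenger RNAs of the mitochondrial genome, which encode core subunits of the respiratory chain and ATP synthase. It has a small subunit, which binds the mRNA, and a large subunit, which forms the peptide bonds. All of its proteins are encoded in the nucleus, made in the cytosol and imported. Many descend from bacterial ribosomal proteins and others are found only in mitochondria, and thyroid hormone is known for raising mitochondrial gene expression and respiration in several tissues. Of the members, 46 have a bacterial counterpart and 30 do not. MRPS36 was named with this family and is now described as a subunit of the 2-oxoglutarate dehydrogenase complex. MRPS30 and MRPS18A carry small-subunit names and are built into the large subunit.

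Total counts assigned to genes ran from 3957592 to 8201606 per library at 24 h and from 2517983 to 5450752 at 6 h. The libraries of the 2 times differed in more than depth. Reads assigned to genes made up 19.5% to 24.4% of all reads at 24 h and 12.9% to 17.1% at 6 h, and reads that mapped to several places 47.6% to 57.1% at 24 h and 61.2% to 67.4% at 6 h. KLF9 and HR are established T3-induced genes and served as a check of the labels. At 6 h KLF9 had 13.3 and 14.0 CPM with T3 and 0.901 and 0.815 CPM with vehicle, as the labels have it. At 24 h it had 2.78 and 3.34 CPM in the libraries labelled T3 and 20.7 and 31.3 CPM in those labelled vehicle, and HR had 2 and 1 counts in the libraries labelled T3 and 19 and 26 counts in those labelled vehicle. Both therefore go against the labels at 24 h, so every direction given below for the 24 h libraries is that of the labels. The same holds for every pairing of 24 h with 6 h libraries as T3 or vehicle. The line's label was checked against marker genes. The 8 thyroid follicular markers used summed to 150.0 to 153 CPM with T3 and 148 to 192 CPM with vehicle at 24 h (8 and 6 with counts; NKX2-1 and SLC5A5 at 0 with vehicle), and to 26.8 to 34.6 CPM with T3 and 42.3 to 43.2 CPM with vehicle at 6 h (5 with counts in each; TG, TSHR and DUOX2 at 0). The 6 epithelial markers summed to 215 to 218 CPM with T3 and 244 to 305 CPM with vehicle at 24 h, and to 473 to 488 CPM with T3 and 480.0 to 540.0 CPM with vehicle at 6 h (5 or 6 with counts; CDH1 at 0 with T3 at 24 h, KRT19 at 0 at 6 h). The 6 fibroblast markers summed to 21.4 to 23.0 CPM with T3 and 26.5 to 27.2 CPM with vehicle at 24 h, and to 15.6 to 16.2 CPM with T3 and 25.3 to 26.7 CPM with vehicle at 6 h (3 or 4 with counts; DCN and LUM at 0 at 24 h, PDGFRA, COL1A2 and THY1 at 0 at 6 h, THY1 also at 0 with vehicle at 24 h). Endothelial, immune and C cell lists summed to at most 2.45 CPM in every library. These levels and read shares moved with time, and their part in the comparisons between 24 h and 6 h was not tested.

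Promoter sequences of 6 members are shown because the results turn on these genes. They are MRPS12 and MRPL12, whose levels were furthest below 6 h at 24 h among well-counted members, MRPS34, which was lower in 3 comparisons, MRPS10, which went up between the times, MRPL50, with the largest T3 difference at 6 h, and MRPL42, higher with T3 at both times. Each window runs from 250 bases before to 50 bases after the gene's start (RefSeq, GRCh38.p14) and is written 5′ to 3′ on the gene's own strand. Capitals mark matches, on either strand, to the ETS core CCGGAAG, bound by the GABP factor, or to the YY1 core ATGGCGG. The MRPL12 window has no match to either.
MRPS12 (chr19:38930694-38930993, plus strand): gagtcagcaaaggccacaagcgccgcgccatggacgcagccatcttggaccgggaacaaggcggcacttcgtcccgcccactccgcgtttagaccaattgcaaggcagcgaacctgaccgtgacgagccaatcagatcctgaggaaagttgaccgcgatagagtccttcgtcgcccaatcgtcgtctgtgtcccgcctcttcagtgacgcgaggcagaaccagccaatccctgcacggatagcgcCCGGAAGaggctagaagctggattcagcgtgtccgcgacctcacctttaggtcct
MRPL12 (chr17:81703117-81703416, plus strand): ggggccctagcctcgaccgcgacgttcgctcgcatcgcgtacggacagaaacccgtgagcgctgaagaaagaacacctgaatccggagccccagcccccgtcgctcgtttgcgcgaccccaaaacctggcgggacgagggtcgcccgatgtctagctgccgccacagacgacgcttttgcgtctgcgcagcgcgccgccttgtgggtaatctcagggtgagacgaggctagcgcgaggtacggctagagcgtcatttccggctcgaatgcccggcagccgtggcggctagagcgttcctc
MRPS34 (chr16:1773085-1773384, minus strand): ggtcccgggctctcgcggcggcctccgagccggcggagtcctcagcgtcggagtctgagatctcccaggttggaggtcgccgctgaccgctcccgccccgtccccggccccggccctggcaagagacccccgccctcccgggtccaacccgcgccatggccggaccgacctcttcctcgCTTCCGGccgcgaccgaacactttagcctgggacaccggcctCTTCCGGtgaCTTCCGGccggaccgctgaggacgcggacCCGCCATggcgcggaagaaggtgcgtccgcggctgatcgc
MRPS10 (chr6:42217812-42218111, minus strand): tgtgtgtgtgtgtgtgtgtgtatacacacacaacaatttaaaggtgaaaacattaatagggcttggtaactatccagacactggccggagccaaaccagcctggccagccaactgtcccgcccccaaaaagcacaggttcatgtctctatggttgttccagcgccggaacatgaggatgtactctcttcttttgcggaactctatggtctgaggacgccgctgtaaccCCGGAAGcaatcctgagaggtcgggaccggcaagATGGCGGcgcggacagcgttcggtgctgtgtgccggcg
MRPL50 (chr9:101398569-101398868, minus strand): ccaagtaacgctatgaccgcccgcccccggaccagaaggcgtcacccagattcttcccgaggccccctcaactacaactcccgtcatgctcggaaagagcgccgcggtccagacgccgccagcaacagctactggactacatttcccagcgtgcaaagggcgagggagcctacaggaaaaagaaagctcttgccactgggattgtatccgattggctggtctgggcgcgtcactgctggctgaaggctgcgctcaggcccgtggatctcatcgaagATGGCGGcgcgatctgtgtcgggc
MRPL42 (chr12:93467264-93467563, plus strand): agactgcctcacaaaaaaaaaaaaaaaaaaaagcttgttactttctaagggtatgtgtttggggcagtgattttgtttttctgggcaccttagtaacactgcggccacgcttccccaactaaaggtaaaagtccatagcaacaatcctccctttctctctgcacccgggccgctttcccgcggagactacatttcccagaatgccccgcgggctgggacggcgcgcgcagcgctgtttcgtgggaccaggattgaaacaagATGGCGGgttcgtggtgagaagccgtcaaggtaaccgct

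Promoters were given for 68 of the 77 members, and their motif content is a description with no test. The ETS core CCGGAAG was found in 28 of the 68 (41.2%), in 19.4% of the promoters of tested genes and in 10.7% of all 27305 promoters. The YY1 core ATGGCGG was found in 23 (33.8%), against 10.5% of tested genes and 5.72% of all. MRPS34 carried 3 ETS cores and a YY1 core, and MRPS10 1 of each. The SP1 box GGGCGG was found in 41 members (60.3%), which lies between the 71.2% of tested genes and the 44.6% of all promoters. NRF1, a regulator of nuclear genes for mitochondrial proteins, binds a pair of half-sites. The pair was searched as 2 copies of GCGC with 2 bases between them, which reads the same on both strands, and was found in 9 members (13.2%), against 16.2% of tested genes and 8.78% of all. The thyroid hormone receptor half-site AGGTCA was found in 11 members (16.2%), against 9.40% of tested genes and 13.9% of all, and in none of the 6 windows printed above. Letters of different motifs were searched separately and matches may touch. A second feature of position was shared by many members: 29 of 77 (37.7%) had another protein-coding gene starting within 1000 bases on the opposite strand, against 13% of 19936 protein-coding genes in GENCODE 29. MRPL46 and MRPS11 start 34 bases apart and are each other's partner, MRPL36 starts 34 bases from NDUFS6 (a complex I subunit), MRPS34 52 bases from EME2 and MRPL50 259 bases from ZNF189. SARS2, which encodes the mitochondrial seryl-tRNA synthetase, starts within MRPS12. No source used here gives the strand setting of the counting, and 38 members overlap another protein-coding gene, 26 of them on the opposite strand. For the overlapping members (among those named below MRPL2, MRPL11, MRPL12, MRPL19, MRPL28, MRPL34, MRPL37, MRPL38, MRPL46, MRPL51, MRPS2, MRPS5, MRPS6, MRPS11, MRPS12, MRPS18A, MRPS18B, MRPS18C, MRPS22, MRPS24 and MRPS28) counts can include or lack reads of the neighbour. The files also hold 26 rows of pseudogenes of 21 members, with 39 counts in all over the 8 libraries.

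Levels are given as counts per 1000000 gene counts scaled by TMM factors (CPM), and levels between genes as CPM per kilobase of exon. The exon length joins all annotated exons of a gene, such as 16393 bases for MRPL42 and 6432 for MRPL46. The order between genes therefore depends in part on the annotation. The mean level over all libraries ran from 2.92 to 188 CPM, with a median of 44.6 CPM, and per kilobase from 1.12 to 84.9 with a median of 16.9. MRPL51, a mitochondria-specific protein of the large subunit, stood highest per kilobase (84.9), with group means at 24 h of 61.6 with T3 and 71.5 with vehicle, and at 6 h of 110.0 with T3 and 96.7 with vehicle. Below it came MRPS34 (73.1) and MRPS18B (71.4), both small-subunit proteins of mitochondria only. MRPS34 stood below MRPL51 at 24 h, with 17.4 with T3 and 29.1 with vehicle, and above it at 6 h, with 125 with T3 and 121 with vehicle, so their order differed between the times. MRPS24, the counterpart of bacterial S3, stood lowest (1.12), followed by MRPL38 (1.20) and MRPL46 (2.30). MRPS24 lies within an annotated read-through gene, URGCP-MRPS24, and no source used here says how reads of both were divided.

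**Figure D1:**
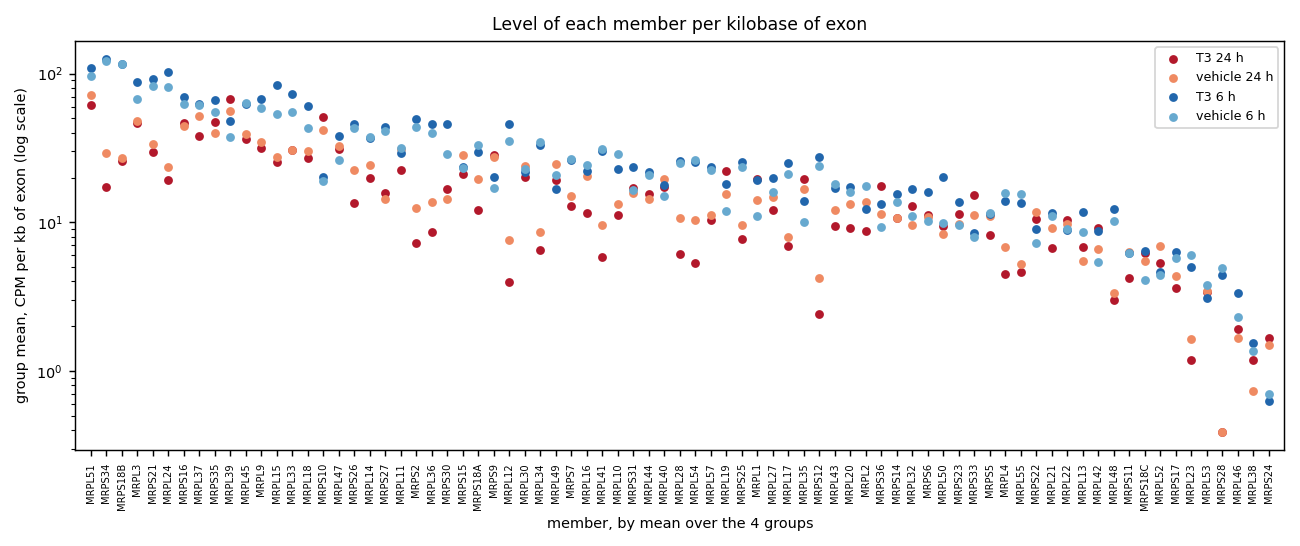
Group mean of each of the 77 members in CPM per kilobase of exon (log axis), ordered by the mean over the 4 groups, with 1 point per group. MRPL51 stands first with a mean of 84.9 and MRPS24 last with 1.12; the 24 h points lie below the 6 h points for most members.

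Summed over the 77 members, the level was 3192 and 3296 CPM in the T3 libraries at 24 h, 3444 and 3358 CPM with vehicle at 24 h, 5858 and 5646 CPM with T3 at 6 h, and 5072 and 4947 CPM with vehicle at 6 h. The 4 libraries of 24 h all lay below the 4 of 6 h, and at 6 h both T3 libraries lay above both vehicle libraries. No single gene carried the sum, since the largest member gave 4.13% to 5.48% of it in each library. In bulk RNA, fewer cells of a type and less RNA per cell cannot be told apart. Of the 77 members, 40 had their highest group mean with T3 at 6 h and 44 their lowest in the libraries labelled T3 at 24 h. The 44 rests on the 24 h labels, which KLF9 and HR contradict. The range of the 4 group means had a median of 0.95 on the log2 scale over the members and 1.35 over all genes tested, and it exceeded the largest gap between replicates in 70 members. No such counts were made over all genes, so the 40, 44 and 70 describe the members alone.

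**Figure D2:**
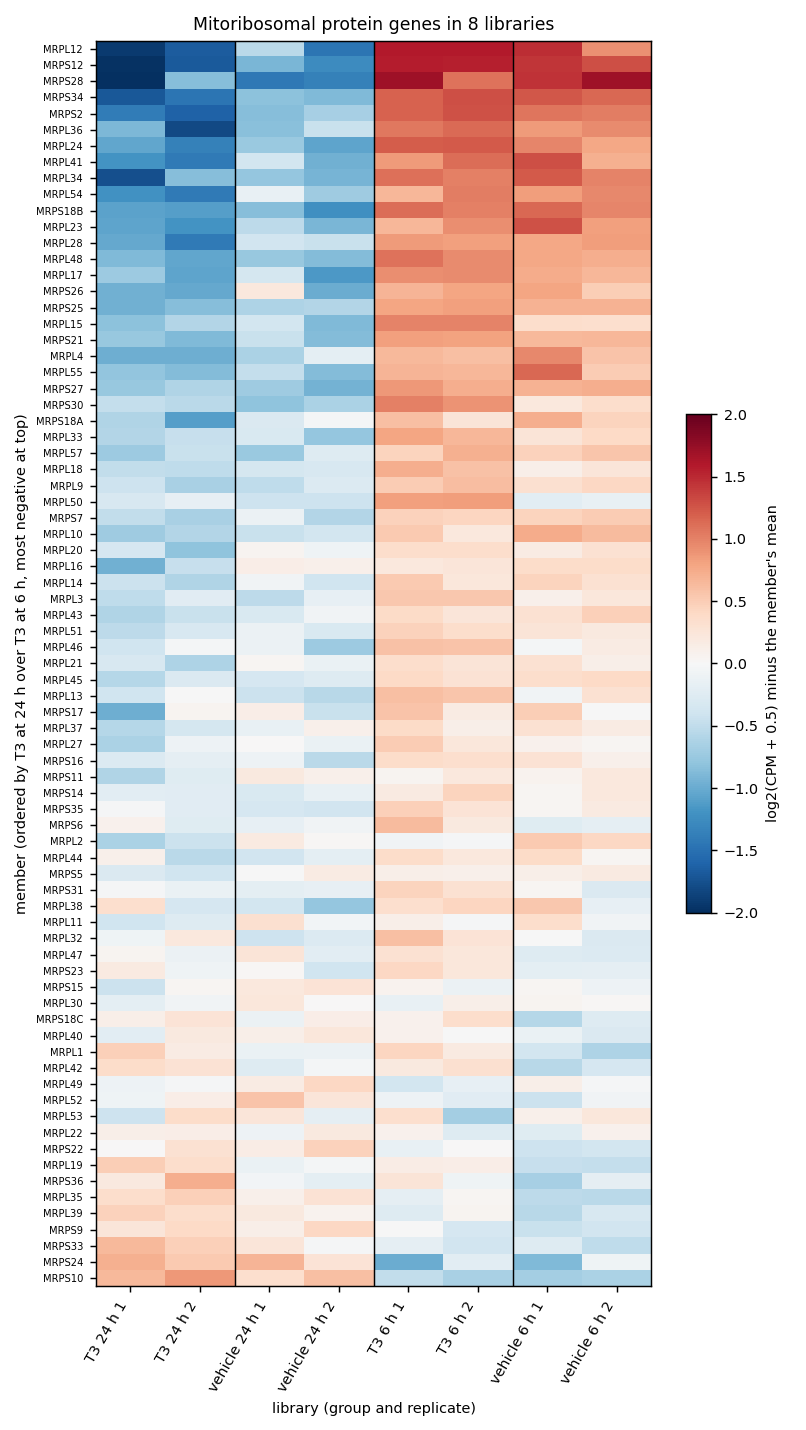
Level of the 77 members (down the page, ordered by the fold change of T3 at 24 h over T3 at 6 h) in the 8 libraries, as log2(CPM + 0.5) minus the member's mean over the libraries, on a colour scale cut at -2 and 2. Blue (lower) fills the upper part of the 24 h columns, led by MRPL12, MRPS12, MRPS28 and MRPS34, and the lowest rows, led by MRPS10, show the opposite order.

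T3 against vehicle at 6 h asks what a short exposure to the hormone did to these transcripts. After 6 h, 7 members were higher with T3 and none was lower by edgeR's quasi-likelihood test with Benjamini-Hochberg adjustment over 14611 genes, a call being an adjusted p under 0.05. The 7 were MRPL50, MRPL1, MRPL42, MRPS30, MRPL15, MRPS6 and MRPL19, 6 of them proteins of the large subunit (MRPS30 included, by its place in the structure). They make 9.09% of the members, against 3.78% of all genes called higher; 3.86% of all genes were called lower. The members' median log2 fold change was 0.13, against -0.02 for all genes. Of the lower direction, 1 member had an unadjusted p under 0.05 and DESeq2 called 0.

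MRPL50, a protein of the mitochondrial large subunit only (chromosome 9, 101387633 to 101398614, minus strand, GRCh38), had 66.7 and 67.1 CPM with T3 and 32.1 and 33.8 CPM with vehicle (log2 fold change 1.02 ± 0.17 SE, adjusted p = 0.00251). Both T3 libraries lay far above both vehicle libraries, with close replicates. MRPL1, the counterpart of bacterial L1 at the tRNA exit stalk (chromosome 4, 77862520 to 77952790, plus strand), had 40.7 and 34.5 CPM with T3 and 23.4 and 19.6 CPM with vehicle (log2 fold change 0.79 ± 0.21 SE, adjusted p = 0.0342). The groups did not overlap, with wider gaps between replicates than for MRPL50. MRPL42, another protein without a bacterial counterpart (chromosome 12, 93467488 to 93516213, plus strand), had 137 and 150.3 CPM with T3 and 81.7 and 95.4 CPM with vehicle (log2 fold change 0.71 ± 0.14 SE, adjusted p = 0.00622). MRPS30 (chromosome 5, 44808925 to 44820428, plus strand), named for the small subunit and placed in the large one, had 296 and 275 CPM with T3 and 169.9 and 188 CPM with vehicle (log2 fold change 0.67 ± 0.12 SE, adjusted p = 0.00396). Both T3 libraries stood above both vehicle libraries in each of these genes.

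MRPL15, MRPL19 and MRPS6 are counterparts of the bacterial proteins of the same numbers. MRPL15 (chromosome 8, 54135210 to 54147901, plus strand) had 99.9 and 100.4 CPM with T3 and 63.6 and 63.2 CPM with vehicle (log2 fold change 0.66 ± 0.17 SE, adjusted p = 0.03), with replicates that nearly coincided. MRPL19 (chromosome 2, 75646783 to 75690851, plus strand) had 84.4 and 82.7 CPM with T3 and 54.6 and 54.2 CPM with vehicle (log2 fold change 0.62 ± 0.14 SE, adjusted p = 0.0164), again with close replicates. MRPS6 (chromosome 21, 34073224 to 34143034, plus strand) had 79.0 and 57.9 CPM with T3 and 42.6 and 44.8 CPM with vehicle (log2 fold change 0.63 ± 0.19 SE, adjusted p = 0.0495). Its T3 libraries differed most among the 7 members, and its adjusted p lay just under the threshold. MRPS18C, the S18 paralog closest in place to the bacterial protein, had 28.1 and 33.9 CPM with T3 and 17.7 and 22.0 CPM with vehicle (adjusted p = 0.0779, not past the threshold). MRPL3 and MRPL11, core large-subunit proteins, had log2 fold changes of 0.37 (adjusted p = 0.122) and -0.12 (adjusted p = 0.729).

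GC content moved with this comparison: 6 of the 7 lay in the lowest tercile of the members by GC content of the longest transcript (33.5% to 43.3%). The 25 members there had a median log2 fold change of 0.48 and the 4328 annotated genes of the same GC range 0.25, with 10.2% of them called higher. With each library corrected for GC content and exon length, 1 of the 7, MRPL42, stayed past the threshold (log2 fold change 0.46, adjusted p = 0.0297), and MRPL50 stood at 0.60 (adjusted p = 0.0575). The calls also rested on single libraries: MRPL50 and MRPS30 held without T3 replicate 2, MRPL50 without T3 replicate 1, MRPL42, MRPL50 and MRPS30 without vehicle replicate 2, and none of the 7 on leaving out vehicle replicate 1. On leaving out replicate 1 or 2 of vehicle at 24 h, which enter through the shared estimate of spread, the members' median was 0.161 and 0.134. That of all genes was -0.003 and -0.025. With library totals and no scaling factor, 4 members were higher, none lower, and all genes split into 248 higher and 703 lower, against 553 and 564 with TMM.

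The comparison of T3 with vehicle at 24 h addresses the longer exposure, with directions as labelled. Here 10 members were lower in the libraries labelled T3 and 2 were higher. The lower ones were MRPL54, MRPL28, MRPL16, MRPS2, MRPS34, MRPS18A, MRPL2, MRPL4, MRPL37 and MRPS5, and the higher ones MRPL19 and MRPL42, both of which were also higher at 6 h. The lower members make 13.0% of the family against 7.76% of all genes called lower, and the higher ones 2.60% against 5.58% of all genes called higher. The median log2 fold change of the members was -0.16, against -0.01 for all genes.

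MRPL54, a large-subunit protein of mitochondria only (chromosome 19, 3762664 to 3768575, plus strand), had 5.71 and 4.95 CPM in the libraries labelled T3 and 12.6 and 8.34 CPM in those labelled vehicle (log2 fold change -0.95 ± 0.29 SE, adjusted p = 0.0394). The levels were low and the vehicle libraries lay well apart, both above the T3 libraries. MRPL28, the counterpart of bacterial L28 (chromosome 16, 366969 to 371289, minus strand), had 21.2 and 16.1 CPM with T3 and 33.3 and 31.9 CPM with vehicle (log2 fold change -0.81 ± 0.17 SE, adjusted p = 0.00717). MRPL16, which lies near the peptidyl transferase centre (chromosome 11, 59806135 to 59810872, minus strand), had 21.8 and 31.0 CPM with T3 and 47.3 and 45.9 CPM with vehicle (log2 fold change -0.81 ± 0.18 SE, adjusted p = 0.00827). Its vehicle level was close to its 6 h levels of 49.4 and 50.7 CPM with T3 and 55.5 and 55.4 CPM with vehicle, so the T3 libraries at 24 h stood alone below the other 6.

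In the small subunit, MRPS2 (chromosome 9, 135499984 to 135504673, plus strand), the counterpart of bacterial S2, had 19.5 and 16.6 CPM with T3 and 28.6 and 32.5 CPM with vehicle at 24 h (log2 fold change -0.77 ± 0.16 SE, adjusted p = 0.0064). MRPS34 (chromosome 16, 1771890 to 1773155, minus strand), a protein needed for small-subunit stability, had 17.4 and 20.6 CPM with T3 and 32.6 and 31.3 CPM with vehicle (log2 fold change -0.74 ± 0.16 SE, adjusted p = 0.00669). In both genes the replicates lay close together and the groups apart. MRPS5, at the mRNA channel, had 57.1 and 53.0 CPM with T3 and 70.0 and 78.3 CPM with vehicle (log2 fold change -0.43 ± 0.14 SE, adjusted p = 0.0452). The 6 h levels of MRPS5 resembled those of vehicle at 24 h.

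The other lower large-subunit members were smaller in effect or nearer the threshold. MRPS18A (chromosome 6, 43671303 to 43687791, minus strand) had 18.4 and 12.8 CPM with T3 and 22.7 and 27.4 CPM with vehicle (log2 fold change -0.71 ± 0.22 SE, adjusted p = 0.0445). MRPL2 (chromosome 6, 43054029 to 43059806, minus strand), the counterpart of the bacterial protein that helps form the peptidyl transferase centre, had 20.5 and 23.8 CPM with T3 and 36.7 and 32.8 CPM with vehicle (log2 fold change -0.64 ± 0.18 SE, adjusted p = 0.0268). At 6 h MRPL2 had 30.6 and 31.7 CPM with T3 and 46.2 and 43.2 CPM with vehicle, in the same order but not past the threshold (adjusted p = 0.102). MRPL37 fell by 0.44 on the log2 scale (adjusted p = 0.0469), with 90.0 and 105 CPM with T3 and 121 and 143 CPM with vehicle. MRPL4 (chromosome 19, 10251901 to 10260045, plus strand) had 18.4 and 18.4 CPM with T3 and 23.6 and 31.9 CPM with vehicle, and its adjusted p, which rounds to 0.05, lay just under the threshold (log2 fold change -0.61 ± 0.20 SE, and 0.03 after the GC and length correction). Among the S18 paralogs, MRPS18A was thus lower, whereas MRPS18B and MRPS18C had log2 fold changes of -0.05 (adjusted p = 0.877) and 0.18 (adjusted p = 0.59).

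On the higher side, MRPL19 had 107 and 97.1 CPM with T3 and 69.1 and 73.6 CPM with vehicle at 24 h (log2 fold change 0.51 ± 0.13 SE, adjusted p = 0.0176). MRPL42 had 155 and 147 CPM with T3 and 101 and 116 CPM with vehicle (log2 fold change 0.47 ± 0.13 SE, adjusted p = 0.0249). With the 6 h values above, every T3 library stood above every vehicle library of the same time in both genes. The order at 24 h rests on the labels that KLF9 and HR contradict, and would be the opposite with those labels turned. MRPS36 had 21.8 and 31.6 CPM with T3 and 18.2 and 16.4 CPM with vehicle, which did not pass the threshold (adjusted p = 0.0882). Values of MRPL12 (-0.85, adjusted p = 0.105) and MRPS12 (-0.76, adjusted p = 0.053) also did not pass.

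**Figure D3:**
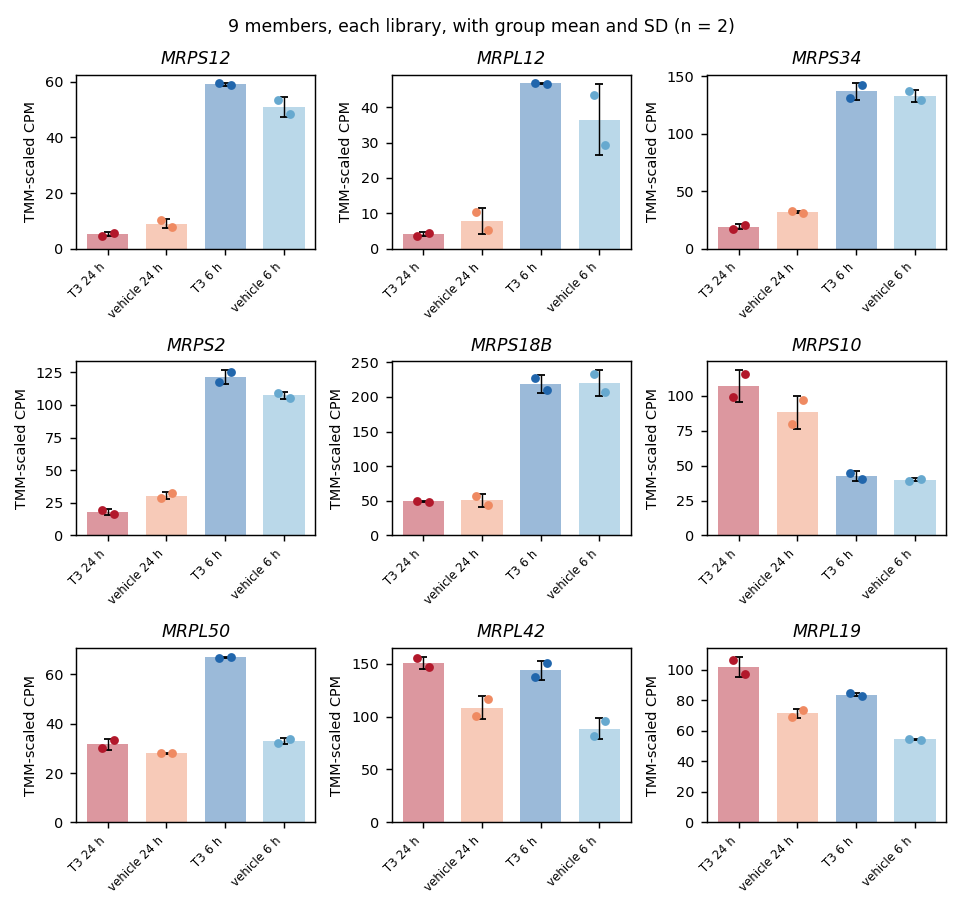
TMM-scaled CPM of 9 members in each library, with 1 point per library and bars for the group mean with its SD (n = 2), for T3 24 h, vehicle 24 h, T3 6 h and vehicle 6 h. MRPS12 averages 5.20 ± 0.797, 9.01 ± 1.58, 59.1 ± 0.557 and 51.0 ± 3.49 CPM in that order, MRPS10 has the opposite order of the times, and MRPL42 and MRPL19 stand higher with T3 at both times.

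Of the 10 lower members, 8 lay in the highest tercile by GC content (52.2% to 71.9%). The 26 members there had a median log2 fold change of -0.50 and the 5008 annotated genes of that GC range -0.38, with 19.4% of them called lower. Both higher members lay in the lowest tercile, where the members' median was 0.21 and that of 4328 genes 0.27. With the correction for GC content and exon length, MRPL16 alone stayed past the threshold (log2 fold change -0.71, adjusted p = 0.0492). MRPL16, MRPL28, MRPS2 and MRPS34 kept their calls whichever of the 8 libraries was left out, and MRPL16 did so under every alternative run. The count of lower members was 4 without either T3 library of 6 h, 5 without either vehicle library of 6 h and 8 to 10 without any 1 library of 24 h. The count of higher members was 0 without T3 replicate 1 of 6 h or vehicle replicate 1 of 24 h, 1 without T3 replicate 2 of 6 h or either T3 library of 24 h, and 2 without any 1 of the other 3.

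**Figure D4:**
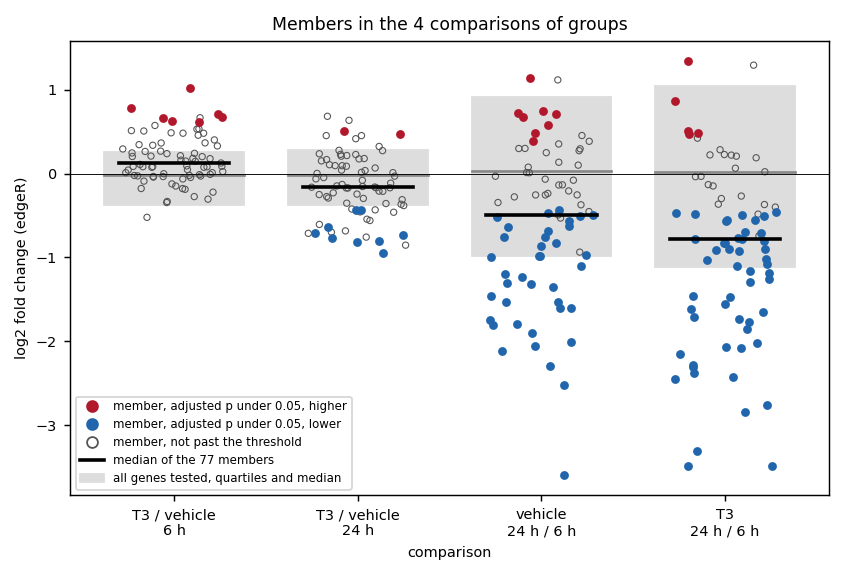
Log2 fold change of each member (points; red higher and blue lower at an adjusted p under 0.05, open not past the threshold) in the 4 comparisons of groups, with the members' median (black line) and the quartiles and median of all 14611 genes tested (grey box and line). The members' medians are 0.13 and -0.16 for T3 over vehicle at 6 h and 24 h, and -0.49 and -0.78 for 24 h over 6 h with vehicle and with T3.

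The T3 responses at the 2 times were set against each other as the response at 24 h minus that at 6 h. The members' median of this difference was -0.34, against -0.01 for all genes, and 65 of 77 estimates were negative. Both values rest on the 24 h labels, which KLF9 and HR contradict, and would be others with those labels turned. By test, 1 member had a lower response at 24 h, MRPS2, with a difference of -0.95 ± 0.22 SE (adjusted p = 0.0312). MRPS2 had 118 and 125 CPM with T3 and 109 and 106 CPM with vehicle at 6 h, beside the 24 h values above. That is 1.30% of the members, near the 0.992% of all genes called in that direction. In the other direction edgeR and DESeq2 each called 0 members, with 0 at an unadjusted p under 0.05, where 0.849% of all genes were called. On leaving out replicate 1 or 2 of vehicle at 24 h, the members' median of the difference was -0.394 and -0.371, and that of all genes -0.055 and 0.0109. Without replicate 1 or 2 of T3 at 24 h these were -0.32 and -0.367, and -0.0379 and -0.0356. MRPS2 lost its call without any 1 library of 6 h, without replicate 2 of either 24 h group, and with the GC and length correction (adjusted p = 0.119). MRPL50, whose T3 difference was the largest at 6 h, had a difference of response of -0.84 ± 0.24 SE (adjusted p = 0.0817).

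The largest differences in the family lay between the times. At 24 h, 51 members were lower and 5 higher than at 6 h with T3, and 38 were lower and 8 higher with vehicle. With T3, 66.2% of the members were lower, against 35.2% of all genes, and 6.49% were higher, against 35.1% of all genes. With vehicle, 49.4% were lower, against 32.6% of all genes, and 10.4% were higher, against 31.9%. The median log2 fold change of the members was -0.78 with T3 and -0.49 with vehicle, where all genes had 0.02 and 0.03. Which 24 h libraries are set against which 6 h libraries rests on the 24 h labels, which KLF9 and HR contradict. With those labels turned, each comparison would set T3 against vehicle as well as 24 h against 6 h. The larger fall with T3 than with vehicle therefore rests on those labels. Of the called members, 31 were at least 2-fold lower with T3 and 21 with vehicle, as were 25.4% and 22.9% of all genes. The 2 comparisons use separate libraries: 38 members were lower in both (29.4% of all genes), 5 higher in both (28.4% of all genes), and 18 past the threshold in neither (23.1% of all genes). Another 13 passed as lower with T3 and not with vehicle (5.72% of all genes), and 3 as higher with vehicle and not with T3 (3.47% of all genes). Except for MRPS2, which is not among these 16, no member passed the threshold in the test of the difference between its 2 changes. Since 70.4% and 64.5% of all genes were called, and read shares and marker levels moved with time as given above, time and any other difference between the 6 h and 24 h libraries cannot be told apart.

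In the small subunit, MRPS12 (chromosome 19, 38930548 to 38933162, plus strand), the counterpart of bacterial S12 at the decoding centre, had the largest well-counted difference. It had 4.63 and 5.76 CPM at 24 h and 59.5 and 58.7 CPM at 6 h with T3 (log2 fold change -3.49 ± 0.22 SE, adjusted p = 3.03e-10). With vehicle it had 10.1 and 7.89 CPM at 24 h and 53.4 and 48.5 CPM at 6 h (log2 fold change -2.52 ± 0.22 SE, adjusted p = 2.75e-08). All 24 h libraries lay far below all 6 h libraries. MRPS34 had 132 and 142 CPM with T3 and 137 and 129 CPM with vehicle at 6 h. Its 24 h levels given above were lower with T3 (log2 fold change -2.84 ± 0.15 SE, adjusted p = 3.52e-11) and with vehicle (log2 fold change -2.06 ± 0.15 SE, adjusted p = 2.92e-09). MRPS2 was lower at 24 h with T3 (log2 fold change -2.76 ± 0.16 SE, adjusted p = 8.41e-11) and with vehicle (log2 fold change -1.81 ± 0.15 SE, adjusted p = 2.35e-08). MRPS18B (chromosome 6, 30617709 to 30626395, plus strand) had 49.6 and 48.5 CPM at 24 h and 228 and 209.8 CPM at 6 h with T3 (log2 fold change -2.16 ± 0.14 SE, adjusted p = 6.19e-10). With vehicle it had 57.6 and 44.4 CPM at 24 h and 234 and 207 CPM at 6 h (log2 fold change -2.12 ± 0.15 SE, adjusted p = 1.72e-09). Its T3 and vehicle libraries overlapped at each time, and its 24 h libraries all lay far below its 6 h libraries.

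MRPS28, a small-subunit protein, was the member with the fewest counts at 24 h. It had 1 and 11 counts at 24 h against 27 and 31 at 6 h with T3, and 3 and 5 counts at 24 h against 27 and 24 at 6 h with vehicle. Per gene count, the summed ratio was 0.123 with T3 (95% exact interval 0.0602 to 0.232) and 0.0872 with vehicle (0.0357 to 0.185), intervals that cover counting error only. Both differences passed the threshold (adjusted p = 0.000157 with T3 and 0.000174 with vehicle).

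In the large subunit, MRPL12 (chromosome 17, 81703357 to 81707526, plus strand), the counterpart of the bacterial stalk protein that recruits translation factors, stood lowest at 24 h relative to 6 h. It had 3.71 and 4.49 CPM at 24 h and 46.9 and 46.7 CPM at 6 h with T3 (log2 fold change -3.49 ± 0.30 SE, adjusted p = 1.46e-08). With vehicle it had 10.4 and 5.21 CPM at 24 h and 43.5 and 29.3 CPM at 6 h (log2 fold change -2.29 ± 0.29 SE, adjusted p = 3.19e-06). The vehicle replicates differed from each other more than the T3 replicates did. MRPL24 (chromosome 1, 156737303 to 156741590, minus strand), the counterpart of a bacterial protein that starts large-subunit assembly, had 36.1 and 28.8 CPM at 24 h and 173 and 176 CPM at 6 h with T3 (log2 fold change -2.43 ± 0.15 SE, adjusted p = 3.7e-10). With vehicle it had 44.1 and 35.7 CPM at 24 h and 147 and 128 CPM at 6 h (log2 fold change -1.80 ± 0.16 SE, adjusted p = 3.29e-08). MRPL36 (chromosome 5, 1798386 to 1801366, minus strand) had 15.7 and 8.18 CPM at 24 h and 62.0 and 65.9 CPM at 6 h with T3 (log2 fold change -2.45 ± 0.24 SE, adjusted p = 1.15e-07). With vehicle MRPL36 was also lower (log2 fold change -1.53 ± 0.24 SE, adjusted p = 3.27e-05).

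MRPL34, the counterpart of bacterial L34, had 15.3 and 13.7 CPM at 24 h and 62.7 and 53.4 CPM at 6 h with vehicle (log2 fold change -2.01 ± 0.24 SE, adjusted p = 1.62e-06). With T3 it had 7.57 and 14.5 CPM at 24 h and 57.7 and 54.1 CPM at 6 h (log2 fold change -2.31 ± 0.24 SE, adjusted p = 1.74e-07). MRPL23, at the tunnel exit, had 5.63 and 4.17 CPM at 24 h and 20.7 and 15.1 CPM at 6 h with vehicle (log2 fold change -1.90 ± 0.34 SE, adjusted p = 0.000101), and fell by 2.08 on the log2 scale with T3 (adjusted p = 2.89e-05). MRPL41, a protein of mitochondria only, had 8.03 and 6.80 CPM at 24 h and 34.6 and 41.7 CPM at 6 h with T3 (log2 fold change -2.38 ± 0.26 SE, adjusted p = 3.91e-07). In each of these genes all 24 h libraries lay below all 6 h libraries. MRPL3 was lower at 24 h with T3 (-0.89, adjusted p = 1.96e-05) and with vehicle (-0.50, adjusted p = 0.00541), and MRPL11 in neither (-0.37, adjusted p = 0.06 with T3; -0.03, adjusted p = 0.883 with vehicle). ICT1 (MRPL58), a peptidyl-tRNA hydrolase built into the large subunit, was lower with T3 (-0.42, adjusted p = 0.0379) and with vehicle (-0.59, adjusted p = 0.00865), but stood at 0.39 and 0.09 after the GC and length correction.

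A few members went the other way. MRPS10 (chromosome 6, 42206801 to 42217865, minus strand), the counterpart of bacterial S10, had 99.0 and 115 CPM at 24 h and 45.1 and 40.3 CPM at 6 h with T3 (log2 fold change 1.34 ± 0.16 SE, adjusted p = 7.16e-07). With vehicle it had 79.7 and 96.8 CPM at 24 h and 39.3 and 40.8 CPM at 6 h (log2 fold change 1.15 ± 0.16 SE, adjusted p = 9.89e-06). Every 24 h library lay above every 6 h library, and both rises held under every alternative run. MRPS33 had 85.1 and 75.4 CPM at 24 h and 47.6 and 41.3 CPM at 6 h with T3 (log2 fold change 0.86 ± 0.16 SE, adjusted p = 0.000151) and rose with vehicle too (0.48, adjusted p = 0.0202). MRPL35 had 60.1 and 68.9 CPM at 24 h and 38.7 and 38.3 CPM at 6 h with vehicle (log2 fold change 0.75 ± 0.16 SE, adjusted p = 0.000721), and with T3 its rise was 0.48 (adjusted p = 0.00999). MRPS9 rose by 0.50 with T3 (adjusted p = 0.0167) and 0.71 with vehicle (adjusted p = 0.00295), and MRPL39 by 0.49 with T3 (adjusted p = 0.00991) and 0.58 with vehicle (adjusted p = 0.00567). MRPS22, MRPL52 and MRPL19 passed the threshold with vehicle and not with T3 (0.72, 0.67 and 0.39), where their T3 values were 0.23, 0.21 and 0.29; whether the 2 differ was past the threshold for none of them (lowest adjusted p = 0.344). MRPS24, at 20 to 35 counts at 24 h and 3 to 11 counts at 6 h, had a log2 fold change of 1.29 with T3 (adjusted p = 0.0509).

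With the correction for GC content and exon length, 41 of the 56 calls with T3 and 26 of the 46 with vehicle stayed past the threshold in the same direction. New calls included, 47 of the 77 members were lower and 8 higher with T3, and 32 lower and 8 higher with vehicle. Over all genes 34.5% were lower and 32.7% higher with T3 in that fit, and 31.9% and 29.1% with vehicle. MRPL41 turned to the opposite direction past the threshold in both comparisons (0.66 with T3 and 0.76 with vehicle), and MRPL19 (-0.34) and MRPS26 (0.63) did so with vehicle. MRPS12, MRPL24, MRPS18B, MRPS2, MRPL34 and MRPL23 stayed lower in both comparisons under every alternative run, and so did MRPL12 and MRPS34 with T3. With vehicle and the correction, MRPL12 stood at -0.49 (adjusted p = 0.113) and MRPS34 at -0.29 (adjusted p = 0.0810), and MRPL36 stood at 0.19 with vehicle and -0.34 with T3, past the threshold in neither. Of the higher members, MRPL35 stood at -0.09 with T3 and MRPS33 at -0.07 with vehicle after the correction. Leaving out any 1 library left 46 to 55 members lower with T3 and 33 to 39 with vehicle. The members higher with vehicle numbered 5 without vehicle replicate 1 of 6 h, and those higher with T3 3 without T3 replicate 1 of 6 h. With library totals in place of TMM, the median of all genes moved by 0.22 with T3 and 0.12 with vehicle, and with upper-quartile scaling by 0.10 with T3. Such a change of scaling moves the members and all genes by about the same amount.

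**Figure D5:**
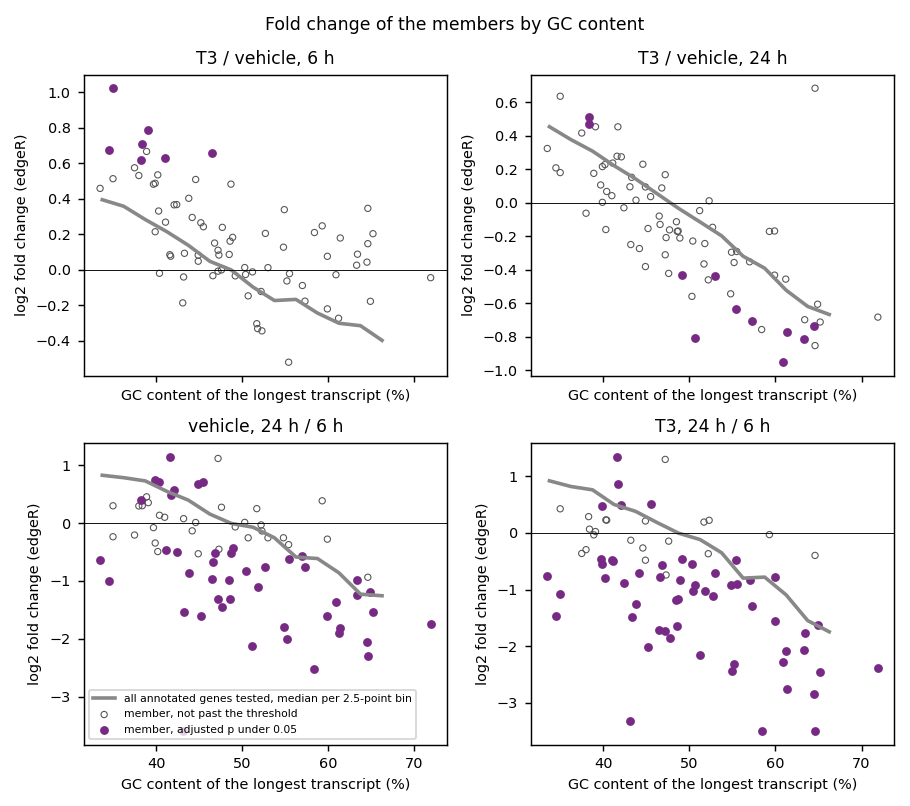
Log2 fold change of each member (filled at an adjusted p under 0.05, open otherwise) against the GC content of its longest transcript in percent, in the 4 comparisons of groups, with the median of all annotated genes tested in bins of 2.5 points (grey line). Across the members Spearman's rho is -0.615 and -0.79 for T3 over vehicle at 6 h and 24 h, and -0.553 with T3 and -0.552 with vehicle for 24 h over 6 h. Both the points and the grey line decline with GC content, and in the comparisons between times the members' median lies below that of all genes in each GC tercile.

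Of 3 properties set against the members' fold changes, GC content had the strongest rank correlation. Across the 77 members, Spearman's rho between GC content and log2 fold change was -0.615 for T3 at 6 h, -0.79 for T3 at 24 h, and -0.553 with T3 and -0.552 with vehicle for 24 h over 6 h. These are descriptions across genes measured in the same libraries, and genes are not independent replicates. The members' median GC content was 47.6%, close to the 48.1% of all tested genes. In the highest tercile by GC content the members' median for 24 h over 6 h was -1.58 with T3 and -1.09 with vehicle, where annotated genes of the same range had -0.86 and -0.68. In the lowest tercile it was -0.30 with T3 and 0.10 with vehicle, against 0.64 and 0.64 for genes of that range. After the correction, the members' median was -0.51 with T3 and -0.29 with vehicle, and 0.09 and -0.13 for T3 over vehicle at 6 h and 24 h. Exon length (rho 0.139 to 0.324) and level per kilobase (rho -0.26 to 0.0524) showed weaker relations in these 4 comparisons.

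The counts can be split by subunit name and by ancestry. With T3, 32 of 48 members with MRPL symbols and 19 of 29 with MRPS symbols were lower at 24 h than at 6 h, and with vehicle 24 and 14. Of the members with a bacterial counterpart 32 of 46 were lower with T3 and 23 with vehicle, and of those specific to mitochondria 19 of 30 and 15. Over all genes 35.2% were lower with T3 and 32.6% with vehicle. For T3 at 6 h, 5 MRPL and 2 MRPS members were higher, and for T3 at 24 h 6 MRPL and 4 MRPS members were lower and 2 MRPL members higher. Among all genes 3.78% were higher with T3 at 6 h, and 7.76% were lower and 5.58% higher at 24 h. Of the 23 members with a YY1 core in the promoter, 5 were higher with T3 at 6 h, against 1 of the 45 without, and of the 28 with an ETS core none was, against 6 of the 40 without. Of the 11 with a receptor half-site 1 was higher with T3 at 6 h, against 5 of the 57 without. The calls of all tested genes with each motif were not counted. Among the 7 members higher at 6 h, 6 lay in the lowest tercile by GC content. MRPL42 alone kept its call after the GC and length correction. No test was made of these counts.

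Genes that work with the mitoribosome, or in mitochondrial gene expression and its regulation, were described by lists chosen for their function. Against the 35.2% of all genes lower at 24 h than at 6 h with T3 and the 32.6% with vehicle, the shares lower were 83.3% and 50% of the subunits with other symbols, 51.7% and 48.3% of the assembly factors, 52.6% and 42.1% of the genes of transcription and mRNA upkeep, and 45.5% and 54.5% of the regulators. The translation factors, with 40.0% and 33.3%, lay near that background in the uncorrected fit. Lower after the GC and length correction, with T3 and with vehicle, were 9 and 8 of the 15 translation factors. So were 11 and 14 of the 29 assembly factors and 13 and 13 of the 19 genes of transcription and mRNA upkeep. Of the 11 regulators 6 and 6 were lower, and of the 6 subunits 4 and 3. Over all genes the corrected shares lower were 34.5% and 31.9%. With the GC and length correction none of these lists held a call for T3 at 24 h, so the 24 h T3 calls named below are those of the uncorrected fit. Of 6 subunits or partners with other symbols, 5 were lower at 24 h than at 6 h with T3, and with vehicle 3 were lower and 1 higher. Higher between the times were 35.1% of all genes with T3 and 31.9% with vehicle. For T3 at 24 h, 2 of the 6 (33.3%) were lower, against 7.76% of all genes. The 2 were AURKAIP1 (small subunit; 21.5 and 22.7 CPM with T3 and 46.8 and 49.3 CPM with vehicle; log2 fold change -1.12 ± 0.18 SE, adjusted p = 0.00145) and GADD45GIP1 (large subunit; 15.3 and 8.52 CPM with T3 and 22.5 and 20.8 CPM with vehicle; log2 fold change -0.89 ± 0.23 SE, adjusted p = 0.0179). DAP3, a GTP-binding small-subunit protein, had a log2 fold change of -0.02 for T3 at 24 h (adjusted p = 0.949), and was lower at 24 h than at 6 h with T3 (-1.24, adjusted p = 6.94e-07) and with vehicle (-1.21, adjusted p = 1.73e-06). At 6 h T3 changed none of the 6 by edgeR or DESeq2 (1 at an unadjusted p under 0.05).

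Of 15 translation factors and tRNA modifiers, none was called for T3 at 6 h by edgeR or DESeq2 (2 at an unadjusted p under 0.05). At 24 h the elongation factor TUFM was lower with T3 (84.3 and 86.4 CPM with T3 and 129.6 and 129.5 CPM with vehicle; log2 fold change -0.60 ± 0.12 SE, adjusted p = 0.00512). The elongation factor GFM1 was higher (138 and 136 CPM with T3 and 98.8 and 99.6 CPM with vehicle, log2 fold change 0.47 ± 0.12 SE, adjusted p = 0.0174). Each is 1 of the 15 (6.67%), near the 7.76% of all genes called lower and the 5.58% called higher. Between the times 6 were lower and 2 higher with T3, and 5 lower and 3 higher with vehicle, among them TUFM, lower with T3 and vehicle (-2.13 and -1.51), and GUF1, a factor of back-translocation, higher (1.87 and 1.80). Of 29 assembly and rRNA modification factors, none was called for T3 at 6 h by edgeR or DESeq2 (4 at an unadjusted p under 0.05). At 24 h 2 were lower with T3, TRUB2 (-0.77, adjusted p = 0.00983) and MPV17L2 (-0.96, adjusted p = 0.0346). That is 6.9% of the 29, near the 7.76% of all genes called lower. Between the times 15 of the 29 were lower and 3 higher with T3, and 14 lower and 3 higher with vehicle. RPUSD4, a pseudouridine synthase acting on mitochondrial rRNA, was furthest down (-3.46 with T3, adjusted p = 2.54e-08, and -2.98 with vehicle, adjusted p = 2.27e-07), and the helicase DHX30 was lower in both (-2.32 and -1.85).

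Of 19 genes of mitochondrial transcription and mRNA upkeep, 3 (15.8%) were higher with T3 at 6 h, against 3.78% of all genes. The strongest was PNPT1, a polynucleotide phosphorylase (115 and 115 CPM with T3 and 53.4 and 73.0 CPM with vehicle; log2 fold change 0.88 ± 0.16 SE, adjusted p = 0.00387). The other two were TRMT10C of mitochondrial RNase P (0.85, adjusted p = 0.0108) and TFAM, the mitochondrial transcription factor (0.44, adjusted p = 0.0436). At 24 h, 2 (10.5%) were higher with T3, against 5.58% of all genes. They were TFAM (0.40, adjusted p = 0.0319) and GRSF1 (0.57, adjusted p = 0.013). Another 3 (15.8%) were lower, against 7.76% of all genes. Among them were POLRMT, the mitochondrial RNA polymerase (6.95 and 5.99 CPM with T3 and 18.9 and 14.3 CPM with vehicle, log2 fold change -1.35 ± 0.21 SE, adjusted p = 0.0013), and TBRG4 (-0.57, adjusted p = 0.0309). POLRMT also stood lower at 24 h than at 6 h, where it had 145 and 148 CPM with T3 and 173 and 143 CPM with vehicle (-4.51 with T3 and -3.27 with vehicle), while TFAM stood higher (0.94 and 0.98). With the GC and length correction PNPT1 alone stayed past the threshold at 6 h (0.64, adjusted p = 0.0132), and TFAM stood at 0.16 with T3 and 0.21 with vehicle between the times, past it in neither. In that list 10 were lower and 2 higher with T3 between the times, and 8 lower and 4 higher with vehicle. LRPPRC, which stabilises mitochondrial mRNAs, was lower with vehicle (-0.33, adjusted p = 0.0218) and had -0.20 with T3 (adjusted p = 0.142).

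Of 11 regulators of mitochondrial biogenesis, DDIT3 was lower with T3 at 6 h (-1.22, adjusted p = 0.00107). That is 9.09% of the list, against 3.86% of all genes. At 24 h 4 (36.4%) were lower with T3 and 1 (9.09%) higher (2 and 0 by DESeq2), against 7.76% and 5.58% of all genes. The lower ones included the coactivator PPRC1 (-0.46, adjusted p = 0.0236), MYC (-0.48, adjusted p = 0.0269) and the nuclear receptor ESRRA (-0.86, adjusted p = 0.031). Between the times 5 were lower and 2 higher with T3, and 6 lower and 2 higher with vehicle. MYC, a transcription factor that raises ribosome production, had 30.4 and 29.3 CPM at 24 h and 1215 and 1262 CPM at 6 h with T3 (log2 fold change -5.38 ± 0.14 SE, adjusted p = 2.63e-14). PPARGC1A, the coactivator PGC-1alpha, had 0 and 1 counts at 24 h and 46 and 70 at 6 h with T3, and 5 and 3 counts at 24 h and 37 and 27 at 6 h with vehicle. The summed ratio per gene count was 0.00514 with T3 (95% exact interval 0.000129 to 0.0292) and 0.0695 with vehicle (0.0288 to 0.145). Of the 13 mRNAs that the mitoribosome translates, edgeR called none in any comparison, with 1 at an unadjusted p under 0.05 (vehicle, 24 h over 6 h), where DESeq2 called 3 higher. Their summed level was 40038 and 38116 CPM with T3 at 24 h, 27863 and 79781 CPM with vehicle at 24 h, 36063 and 38522 CPM with T3 at 6 h, and 18782 and 32273 CPM with vehicle at 6 h. The 2 vehicle libraries of 24 h lay further apart than the 2 libraries of any other group.

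Other nuclear gene sets of translation and respiration gave a frame. Of 83 rows of cytosolic ribosomal proteins 81 were tested, and 75 (92.6%) were lower at 24 h than at 6 h with T3 and 71 (87.7%) with vehicle, with medians of -1.55 and -1.31. Of 81 rows of nuclear-encoded respiratory chain subunits 73 were tested, and 57 (78.1%) were lower with T3 and 55 (75.3%) with vehicle, with medians of -1.06 and -0.90. The mitoribosomal medians of -0.78 and -0.49 lay between these and the 0.02 and 0.03 of all genes. Of all genes, 35.2% were lower with T3 and 32.6% with vehicle. For T3 at 24 h, 23 cytosolic ribosomal proteins were lower and 2 higher (median -0.21), and 5 respiratory subunits lower and 3 higher (median -0.05), beside 10 and 2 of the mitoribosomal members. These were 28.4% and 2.47% of the cytosolic set and 6.85% and 4.11% of the respiratory set, against 7.76% and 5.58% of all genes. For T3 at 6 h, 3 cytosolic ribosomal proteins were higher and 1 lower (median 0.14), and 2 respiratory subunits higher and none lower (median 0.06, with 3 lower at an unadjusted p under 0.05, and DESeq2 called 0 lower), beside 7 and 0. Higher were thus 3.7% of the cytosolic and 2.74% of the respiratory set, near or below the 3.78% of all genes. Lower were 1.23% of the cytosolic set, against 3.86% of all genes. No test was made between the sets.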

How the data were processed

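RNA-seq libraries of 4 groups of 2 were compared. The values are raw counts per gene symbol, which the authors deposited per library with 56832 gene rows and 5 summary rows (no feature, ambiguous, not unique and the like). The summary rows, 75.6% to 87.1% of all reads, stayed out of library sizes and tests. The submitters' processing notes name CASAVA 1.7, STAR 2.7, HTSeq, DESeq2 and hg38; no source used here gives the annotation release or strand setting. Groups were taken from the sample labels.

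edgeR 4.0.16 (R 4.3.3, limma 3.58.1) fitted all 8 libraries together, with 1 mean per group, TMM factors, its default filter on low counts, robust quasi-likelihood F tests with 4 residual degrees of freedom, and Benjamini-Hochberg adjustment over the 14611 genes kept. A call is an adjusted p under 0.05. The biological coefficient of variation was 13.1%. The standard error (SE) is the log2 fold change divided by the root of F. Level per kilobase and GC content used GENCODE 29 (GRCh38) by symbol, with values for 30484 rows. The script was tested on simulated data. Alternatives were DESeq2 1.42.0 and its size factors, no filter, a replicate block, lowess correction of each library for GC content and exon length (span 0.3, 12944 genes), that correction with the block, the compared libraries alone, and each library left out; upper-quartile scaling and library totals were added after seeing the data. Intervals cover counting error only.

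The members and lists were chosen with earlier results of these data known. In each comparison the 8 largest called rises and falls without overlap between groups were named, with the 3 highest and lowest members per kilobase, a fixed set (MRPL3, MRPL11, MRPL12, MRPS12, MRPS22, MRPS30, MRPS36, MRPL58 and the S18 paralogs; KLF9, HR, TUFM, TFAM and LRPPRC) and up to 3 called genes per list. MRPL37, MRPS5, MRPS26, PPARGC1A and the members kept or lost under single alternatives were named after their values were seen. One marker gene of the thyroid list is not reported here. Promoters are RefSeq's, and 9 members had no entry there. Figures were drawn with matplotlib 3.10.9.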

Additional observations from a re-analysis of the deposited data

Results flagged for a closer look

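By edgeR's interaction test, adjusted over all 14611 genes, the response to T3 at 24 h differed from that at 6 h for 269 genes, 6 of which are among those named here. Each value is the 24 h minus the 6 h log2 response as labelled. MRPS2 was the member among them (-0.951, adjusted p = 0.0312). Of the genes in the lists described beside the members, AURKAIP1 had -1.27 (adjusted p = 0.0139), POLRMT -1.24 (adjusted p = 0.0194) and the stress factor DDIT3 1.11 (adjusted p = 0.0279). With the GC and length correction, MRPS2 and AURKAIP1 lost this call, and the lists of POLRMT and DDIT3 each held 1 call in the same direction. KLF9 (-7.03, adjusted p = 4.02e-06) and HR (-4.96, adjusted p = 0.000127), the T3-induced genes used to check the labels, differed most, HR resting on 3 counts in the T3 libraries at 24 h.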

How the results depend on the processing

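Genes named by the rule gave 5202 values on the same side of the threshold, 110 stronger, 336 weaker and 52 reversed over all alternatives. A reversed value changed sign and was past the threshold in the main fit, the alternative or both. Changes of sign past it in neither are among the 5202. Counts are of members. For T3 at 6 h, 4 were higher by DESeq2, 4 with upper-quartile scaling, 4 with library totals, 1 with the GC and length correction, and 1 with that correction and the replicate block. Higher over all genes in these runs were 3.54%, 2.32%, 1.7%, 1.21% and 1.26%. The compared libraries alone gave 18 higher and 1 lower, where 12.1% of all genes were higher and 11.6% lower. The median was 0.19 with no filter, 0.059 with upper-quartile scaling and 0.0361 with library totals. For T3 at 24 h, 4 were lower by DESeq2, 5 with library totals, and 1 with the correction, with or without the block, and from the compared libraries alone, and each of these last 3 gave 0 higher. For vehicle, 24 h over 6 h, 5 were higher by DESeq2, and the median was -0.294 with the correction, -0.298 with the block added, -0.419 with upper-quartile scaling and -0.365 with library totals. For T3, 24 h over 6 h, 8 were higher with the correction, 8 with the block added and 11 with library totals, and the median was -0.844 with no filter, -0.511 with the correction, -0.518 with the block added, -0.683 with upper-quartile scaling and -0.565 with library totals. For the difference of response, 8 were lower with no filter, where 1.58% of all genes were. With the correction, with the block added or with library totals 0 were lower. The medians of these 4 runs were -0.434, -0.245, -0.237 and -0.243. The causes were not tested. Leaving out 1 library gave 0 to 15 higher (median 0.134 to 0.206) for T3 at 6 h, 0 to 2 higher and 4 to 10 lower (-0.233 to -0.136) for T3 at 24 h, 5 to 8 higher and 33 to 39 lower (-0.484 to -0.417) for vehicle between times, 3 to 6 higher and 46 to 55 lower (-0.935 to -0.739) for T3 between times, and 0 to 4 lower (-0.411 to -0.32) for the difference. The lone library left in a group is then assumed to vary like the others. The share called over all genes also changed with the library left out, so these counts are not a trait of the members.

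Reversed values, with the correction and with the block added, were for T3 between times AURKAIP1 0.354 and 0.355, GFM1 -0.48 and -0.481, ICT1 0.393 and 0.394, MPV17L2 0.0566 and 0.0575, MRPL19 -0.453 and -0.458, MRPL2 0.31 and 0.311, MRPL35 -0.0909 and -0.0869, MRPL38 1.19 and 1.14, MRPL41 0.661 and 0.652, MRPL42 -1.05 and -1.05, and MRPS22 -0.418 and -0.415. For vehicle between times they were AURKAIP1 1.18 and 1.19, GFM1 -0.533 and -0.53, ICT1 0.0934 and 0.0977, MPV17L2 0.961 and 0.958, MRPL19 -0.345 and -0.338, MRPL36 0.191 and 0.19, MRPL4 0.0943 and 0.0875, MRPL41 0.762 and 0.775, MRPL42 -0.72 and -0.721, MRPL54 0.0699 and 0.0699, MRPS18A 0.304 and 0.321, MRPS33 -0.0692 and -0.0539, MRPS6 -0.447 and -0.43, and PNPT1 -0.127 and -0.13. For T3 at 24 h MRPL4 had 0.0335 and 0.0361. MRPS26, named outside the rule and not counted among the 52, had 0.235 with T3 and 0.632 with vehicle between times with the correction, and was lower in both without it.

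Whether replicate numbers pair the libraries is not stated in the sources used here. Between groups, the deviations of libraries with the same number correlated at -0.0437 to 0.0972, so no strong effect was shared by number. With so few libraries per group, these correlations cannot tell whether the libraries were paired. With the replicate block, 8 members were higher for T3 at 6 h, 3 higher and 10 lower for T3 at 24 h, 8 and 38 for vehicle between times and 5 and 53 for T3 between times. At 3 counts the floor was 1.19 CPM in the smallest library, vehicle replicate 2 of 6 h, and 0.366 to 0.758 CPM in the 24 h libraries. At 24 h MRPS28 (1 to 11 counts), PPARGC1A (0 to 5) and HR in the libraries labelled T3 (2 and 1) rest on few counts. HR had 19 and 26 counts in those labelled vehicle.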
